A study of Mus musculus with 16 samples.

Results

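The LINGO and Nogo receptor family was examined across 4 treatments of cultured mouse hippocampal neurons. Its 9 genes were *Lingo1*, *Lingo2*, *Lingo3*, *Lingo4*, *Rtn4*, *Rtn4r*, *Rtn4rl1*, *Rtn4rl2* and *Omg*, out of 48397 gene symbols in the count tables. *Lingo4* was selected on its own counts, since it had been among the genes with at least a 2-fold difference and the smallest p-values between apoE2-treated and control neurons in an earlier look at these data. The other 8 genes were chosen by their family, with earlier results of the data known. The values of *Lingo4* in any comparison that holds the control or apoE2 are therefore a description and carry no test. All 9 genes passed the filter on low counts, as did 17038 genes in all.

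The neurons came from the hippocampi of wild-type CD1 pups at postnatal day 0 to 2 and received cytosine arabinoside, which stops dividing cells, at 3 days in vitro (DIV). At 10 and 13 DIV they were given 10-fold concentrated astrocyte medium, and total RNA was taken at 17 DIV. Control neurons received medium of *Apoe*-/- astrocytes, which carries no apoE. ApoE2, apoE3 and apoE4 neurons received medium with the lipoproteins of immortalized astrocytes that were homozygous for the matching human allele, derived from *APOE* targeted replacement mice. Each of the 4 groups had 4 libraries, numbered 1 to 4 in the labels, and the study's methods describe them as separate cultures. The isoform cannot be told apart from the astrocyte line that supplied the medium.

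LINGO proteins are single-pass membrane proteins of the neuronal surface with leucine-rich repeats and an immunoglobulin domain. LINGO1 joins the Nogo receptor NgR1 (*Rtn4r*), which has no intracellular part of its own, and a signalling partner, p75 (*Ngfr*) or TROY (*Tnfrsf19*). The myelin-associated ligands Nogo-A (*Rtn4*), oligodendrocyte myelin glycoprotein (*Omg*) and myelin-associated glycoprotein (*Mag*) bind this complex, which activates RhoA and ROCK and halts the growth cone. In hippocampal neurons the same receptors are known for limiting dendritic growth, spine formation and plasticity.

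The libraries held 14087723 to 34248172 counts on genes, with a median of 22221832, and 38.4% to 73.7% of all counted reads were assigned to no single gene. Every one of the 6 neuron markers and of the 6 astrocyte markers examined had counts in each library. The summed level of the neuron markers ran from 2640 to 6680 CPM, the count scaled for library size, and that of the astrocyte markers from 392 to 5020 CPM. The cultures thus held both neurons and astrocytes. In apoE3 replicate 4 the astrocyte sum was 5020 CPM and the neuron sum 2640 CPM, and in apoE4 replicate 4 they were 4030 and 3030 CPM. The 9 oligodendrocyte markers summed to 99.6 to 779 CPM. Such sums over different genes are not cell counts. In bulk RNA, fewer cells of a type and less RNA per cell cannot be told apart.

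In the control neurons the family was led by its most widespread ligand. Per kilobase of exon, *Rtn4* had 118 ± 21.2 CPM per kb (SD, n = 4) and *Lingo1* 39.3 ± 15.4 CPM per kb. *Rtn4rl1*, which encodes the Nogo receptor relative NgR3, had 20.6 ± 6.5 CPM per kb. *Omg* had 18 ± 4.87, *Rtn4r* 17.6 ± 5.31 and *Rtn4rl2*, which encodes NgR2, 15.3 ± 4.34 CPM per kb. *Lingo3* followed at 9.81 ± 3.69 CPM per kb, *Lingo2* at 4.28 ± 0.699 and *Lingo4* at 0.231 ± 0.0797. The ranges of *Rtn4* (93.5 to 140 CPM per kb), *Lingo2* (3.48 to 5.15) and *Lingo4* (0.175 to 0.345) overlapped with those of no neighbour in this order. From *Lingo1* down to *Lingo3* each gene's range overlapped with that of the next. Within every single control library, though, *Lingo1* lay above the Nogo receptors and *Omg*. *Rtn4rl2* lay below *Rtn4rl1*, *Omg* and *Rtn4r* in each, and *Lingo3* below all of these. The order of *Rtn4rl1*, *Omg* and *Rtn4r* changed between libraries and is not resolved by 4 libraries.

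The genes lie on 7 chromosomes (GRCm38). *Lingo4* occupies chr3:94398517-94404501 on the plus strand, with 2 exon blocks and 3645 exon bases. The antisense gene *Gm43401*, with at most 2 reads in any library, overlaps 79 of its exon bases. *Lingo1* lies at chr9:56618475-56796468 on the minus strand, *Lingo2* spans chr4:35706647-36951747 and *Lingo3* lies at chr10:80832801-80844039, both also on the minus strand. *Rtn4r* lies at chr16:18127642-18152408, *Rtn4rl1* at chr11:75193783-75267769 and *Rtn4rl2* at chr2:84871924-84886710. *Rtn4* lies at chr11:29692947-29744331, and 18.4% of its exon length lies over exons of *Eml6* on the other strand. *Omg* lies at chr11:79500982-79504084 within the span of *Nf1*, which runs on the other strand, and shares no exon with it. Whether the counting used strand is not stated, so the counts of *Rtn4*, *Omg* and the overlapped bases of *Lingo4* may hold reads of the opposite gene or miss ambiguous ones.

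RefSeq promoter windows (GRCm38.p6, 250 bases before a transcript start to 50 after it) were found for 7 of the 9 genes. The windows of *Lingo4*, the gene that was selected, and of *Lingo1* and *Rtn4r*, which moved together, are shown 5′ to 3′ on the gene's strand with each GC box (GGGCGG or its complement CCGCCC, either strand, overlaps counted) in capitals. They lie at chr3:94398969-94399268, chr9:56796261-56796560 and chr16:18127392-18127691.
Lingo4: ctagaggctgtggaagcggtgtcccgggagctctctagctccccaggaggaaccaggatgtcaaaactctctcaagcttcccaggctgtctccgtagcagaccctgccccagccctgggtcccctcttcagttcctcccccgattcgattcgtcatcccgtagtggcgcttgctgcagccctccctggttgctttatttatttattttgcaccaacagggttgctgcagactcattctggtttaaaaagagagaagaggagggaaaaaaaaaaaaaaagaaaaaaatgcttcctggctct
Lingo1: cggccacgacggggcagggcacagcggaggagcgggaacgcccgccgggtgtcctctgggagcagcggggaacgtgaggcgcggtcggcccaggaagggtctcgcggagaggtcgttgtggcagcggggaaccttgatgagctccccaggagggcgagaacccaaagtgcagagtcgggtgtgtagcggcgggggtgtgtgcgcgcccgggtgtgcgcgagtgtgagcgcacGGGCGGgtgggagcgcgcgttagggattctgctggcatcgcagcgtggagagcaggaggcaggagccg
Rtn4r: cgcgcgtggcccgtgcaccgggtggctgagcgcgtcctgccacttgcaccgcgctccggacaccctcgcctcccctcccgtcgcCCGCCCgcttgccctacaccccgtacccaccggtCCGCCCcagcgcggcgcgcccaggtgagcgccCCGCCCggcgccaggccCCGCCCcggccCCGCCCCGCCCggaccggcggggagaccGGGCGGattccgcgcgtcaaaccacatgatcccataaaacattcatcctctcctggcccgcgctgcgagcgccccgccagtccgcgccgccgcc
The *Lingo4* window held 8 CpG dinucleotides and 0 GC boxes, the *Lingo1* window shown 35 CpGs and 1 GC box, and the *Rtn4r* window 47 CpGs and 7 GC boxes. Of 32851 such windows, 35.7% held a GC box and the median held 7 CpGs. A second *Lingo1* start has its window at chr9:56635599-56635898, with 32 CpGs and 2 GC boxes.

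*Lingo4*, the least abundant of the LINGO genes in these cultures, is described first as the gene that was selected. Control replicates 1 to 4 had 14, 16, 36 and 16 reads, which are 0.636, 0.644, 1.26 and 0.838 CPM. ApoE2 neurons had 37, 79, 129 and 93 reads, or 2.61, 3.02, 4.94 and 2.37 CPM. ApoE3 neurons had 2.44, 1.6, 2.93 and 2.23 CPM and apoE4 neurons 1.9, 1.62, 0.941 and 1.73 CPM. All apoE2 and apoE3 libraries thus lay above all control libraries, while the lowest apoE4 library, replicate 3, lay below the highest control library, also replicate 3.

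In log2 fold change from edgeR, *Lingo4* stood at 1.93 (standard error 0.33) in apoE2 neurons, 1.44 (0.33) in apoE3 neurons and 0.87 (0.33) in apoE4 neurons relative to the control. It was higher than the control of the same number in 4, 4 and 3 of 4 pairs. The groups did not overlap for apoE2 and for apoE3 against control, with *Lingo4* higher, nor for apoE4 against apoE2, with *Lingo4* lower. Over all tested genes, 1.14%, 1.4% and 1.5% were separated in those directions. The apoE2 figure is the contrast on which the gene was selected, and the others share its groups, so nothing is read from these counts. Between apoE4 and apoE3, the 1 comparison that holds neither group, *Lingo4* differed by −0.57 (standard error 0.32, 95% interval −1.26 to 0.12, adjusted p = 1) and was lower in 3 of 4 pairs.

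**Figure D1:**
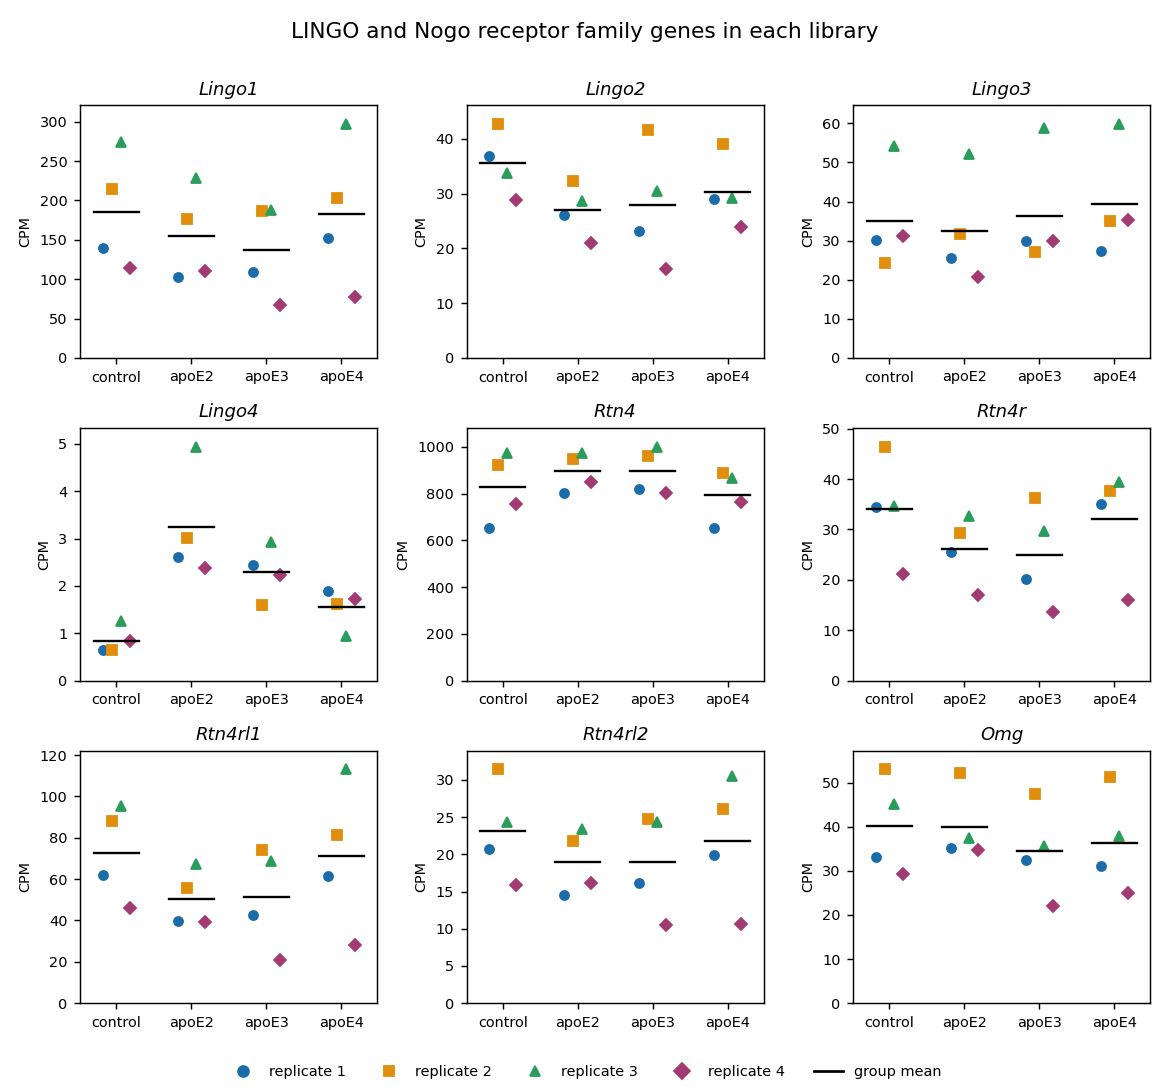
Level of each family gene in CPM (the count scaled for library size, vertical axis, from 0) in the 16 libraries, grouped by treatment (horizontal axis), with marker and colour giving the replicate number and the bar the mean of 4. In *Lingo4* the apoE2 and apoE3 libraries sit above the control libraries, between 1.6 and 4.94 CPM against 0.636 to 1.26, while the treatments overlap in the other genes and much of their spread goes with the replicate number.

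The study's own criterion asks for at least a 2-fold difference and p under 0.05 before adjustment, and it was applied to the edgeR fit. None of the 8 genes other than *Lingo4* met it in any comparison. The criterion was met by 0.722% of tested genes in apoE2 neurons, 1.96% in apoE3 neurons and 1.15% in apoE4 neurons relative to control. It was met by 1.25% with apoE4 against apoE3, 1.3% with apoE4 against apoE2 and 0.687% with apoE3 against apoE2. *Lingo4* was selected by such a criterion with apoE2 against control, so its own standing under it is not counted here.

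None of the 8 genes other than *Lingo4* was called at an adjusted p under 0.05 (edgeR quasi-likelihood test with Benjamini-Hochberg adjustment) in any of the 6 comparisons when the fit held only the treatment. Of all tested genes that fit called 0% in apoE2 neurons, 0.00587% in apoE3 neurons and 0.194% in apoE4 neurons relative to control. It was 0.147% for apoE4 against apoE3, 0.252% for apoE4 against apoE2 and 0% for apoE3 against apoE2. At an unadjusted p under 0.05 the fit had 0 of the 8 genes other than *Lingo4* in every comparison, and 389 to 1095 of all tested genes. DESeq2 with treatment alone called none of the 8 genes other than *Lingo4* in any comparison. Libraries with the same number deviated together, so the calls were also made with the replicate number in the fit, where 1.73%, 11.7% and 3.3% of genes were called with apoE2, apoE3 and apoE4 against control. In that fit the shares were 1.76% for apoE4 against apoE3, 4.44% for apoE4 against apoE2 and 1.31% for apoE3 against apoE2. It put 3, 5 and 0 of the 8 genes under an unadjusted p of 0.05 with apoE2, apoE3 and apoE4 against control, 4 for apoE4 against apoE3, 2 for apoE4 against apoE2 and 1 for apoE3 against apoE2, where all tested genes had 2272 to 4680.

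In the fit that held the replicate number, 4 of the 8 genes other than *Lingo4* were lower with apoE3 than in the control, against 3.73% of all tested genes called lower. They were the Nogo receptor *Rtn4r*, its relative *Rtn4rl1*, the co-receptor *Lingo1* and its relative *Lingo2*. None was called in the other direction, and no gene of the 8 was called in any of the other 5 comparisons.

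*Lingo1* had 140, 214, 274 and 114 CPM in control replicates 1 to 4 and 109, 187, 188 and 66.7 CPM with apoE3. Each apoE3 library lay below the control of its number although the groups overlapped widely. The log2 fold change was −0.46 (standard error 0.13, adjusted p = 0.0398) with the replicate number and −0.43 (0.43, adjusted p = 0.822) without it, by edgeR. With apoE2 it had 103, 177, 228 and 110 CPM and with apoE4 152, 203, 297 and 77 CPM. Against control these gave −0.26 and −0.03 on the log2 scale, neither called.

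*Rtn4r*, the ligand-binding receptor, had 34.4, 46.4, 34.6 and 21.2 CPM in the control and 20.2, 36.2, 29.6 and 13.6 CPM with apoE3. It was lower in 4 of 4 pairs, and its fitted log2 difference was −0.48 (standard error 0.12, adjusted p = 0.0219 by edgeR) with the replicate number and −0.45 (0.34, adjusted p = 0.81) without it. ApoE2 libraries had 25.6, 29.2, 32.6 and 17 CPM and apoE4 libraries 35, 37.6, 39.4 and 15.9 CPM. In every group replicate 4 was the lowest library.

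*Rtn4rl1* had 62.1, 88, 95.2 and 45.8 CPM in the control and 42.4, 74.3, 68.6 and 20.9 CPM with apoE3. Its log2 fold change was the largest of the 4, −0.57 (standard error 0.17, adjusted p = 0.0426 by edgeR) with the replicate number and −0.5 (0.42, adjusted p = 0.812) without it. With apoE2 it had 39.5, 55.9, 67.5 and 39.1 CPM, also below the control in 4 of 4 pairs. That difference, −0.48 (0.17) with the replicate number, had an adjusted p of 0.188 and was not called by edgeR. It was called in the same fit without apoE2 replicate 4 (−0.73, adjusted p = 0.0083) and without the filter on low counts (−0.49, adjusted p = 0.000383).

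*Lingo2*, which is known from neurons and from genetic studies of body weight and tremor, had 36.8, 42.7, 33.7 and 28.9 CPM in the control and 23.1, 41.7, 30.4 and 16.3 CPM with apoE3. The pairs differed by −0.67, −0.03, −0.15 and −0.83 on the log2 scale, so replicates 1 and 4 carried most of the difference. The fitted value was −0.39 (standard error 0.11, adjusted p = 0.0385 by edgeR) with the replicate number and −0.35 (0.24, adjusted p = 0.806) without it. With apoE2 it had 26.1, 32.4, 28.6 and 21 CPM, lower in 4 of 4 pairs, at −0.4 (0.11, adjusted p = 0.0973 by edgeR) with the replicate number. That difference of *Lingo2* was called without apoE3 replicate 4 (adjusted p = 0.0398), without the filter (adjusted p = 0.0116) and by DESeq2 with the replicate number (adjusted p = 0.0291).

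With 1 library left out at a time in the fit with the replicate number, *Lingo1* was still called in 9 of 16 fits, *Lingo2* in 10, *Rtn4r* in 11 and *Rtn4rl1* in 7. The log2 differences ran from −0.56 to −0.39, −0.52 to −0.28, −0.59 to −0.38 and −0.72 to −0.44 over those fits, in the same order. Without apoE3 replicate 4 the adjusted p rose to 0.146 for *Lingo1* and *Lingo2*, 0.0739 for *Rtn4r* and 0.16 for *Rtn4rl1*. Without control replicate 1 it rose to 0.101, 0.151, 0.0768 and 0.117 in that order, all by edgeR. All 4 calls were lost too without apoE3 replicate 1 or control replicate 4. *Lingo1* and *Rtn4rl1* were lost without apoE3 replicate 3 or control replicate 3, and *Lingo1*, *Rtn4r* and *Rtn4rl1* without control replicate 2. *Lingo2* and *Rtn4rl1* were lost without apoE4 replicate 1, *Lingo2* without apoE4 replicate 3 and *Rtn4rl1* without apoE4 replicate 2.

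Cell type markers moved in the same comparison. With apoE3 against control and the replicate number in the fit, 6 of 6 astrocyte markers rose, with a median log2 fold change of 0.8, and the summed astrocyte level ran from 635 to 5020 CPM against 392 to 2110 CPM in the control. Of 5 oligodendrocyte precursor markers 3 rose, and of 9 oligodendrocyte markers 2 rose. Of 6 neuron markers 2 fell and 1 rose, with summed levels of 2640 to 6040 CPM with apoE3 and 3590 to 6570 CPM in the control. Of all tested genes, 7.95% rose and 3.73% fell in this comparison. No astrocyte, precursor or neuron marker was at 0 in any group. With apoE4, 3 of 6 astrocyte markers rose, where 3.18% of all tested genes rose, while *Lingo1*, *Lingo2*, *Rtn4r* and *Rtn4rl1* had log2 fold changes of −0.09, −0.24, −0.12 and −0.12 in the same fit, none called. The 3 GABAergic markers, of inhibitory neurons, had mean summed levels of 391 CPM in the control, 309 with apoE2, 277 with apoE3 and 383 with apoE4, and 1 of the 3 fell with apoE3. The 5 glutamatergic markers had 1720, 1710, 1460 and 1700 CPM in that order, and the 1 of the 5 that was called with apoE3 rose. The median log2 fold change with apoE3 was nevertheless −0.44 for the glutamatergic, −0.26 for the GABAergic and −0.21 for the neuron markers, with the replicate number in the fit. The part of these markers in the family's values was not tested.

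Library composition also differed within the pairs of apoE3 and control. Reads assigned to no single gene made up 71.6%, 52%, 55.1% and 67.1% of counted reads in apoE3 replicates 1 to 4, against 61.8%, 53.3%, 51.4% and 64.7% in the controls. One gene, *Lars2*, took 12.5%, 2.83%, 4.62% and 7.64% of the counts on genes with apoE3 against 5.95%, 4.85%, 3.89% and 8.36% in the controls, and 0.359% to 15% over all 16 libraries. Replicate 1 thus had the widest gap in both shares, while the *Lars2* share of replicate 4 was lower with apoE3 than in the control. Replicates 1 and 4 had the larger pair differences of *Lingo2*, *Rtn4r* (−0.77 and −0.63 on the log2 scale) and *Rtn4rl1* (−0.55 and −1.13). For *Lingo1* they were replicates 3 and 4 (−0.54 and −0.77). The part of these shares in the calls was not tested.

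The third Nogo receptor gene, *Rtn4rl2*, ran beside its relatives without being called. It had 20.7, 31.4, 24.3 and 15.9 CPM in the control and 16.1, 24.7, 24.4 and 10.5 CPM with apoE3, a log2 fold change of −0.31 (standard error 0.15, adjusted p = 0.191 by edgeR) with the replicate number. It was lower in 3 of 4 pairs, and the 95% interval of that difference was −0.63 to 0.01.

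No difference of the ligands *Rtn4* and *Omg* from control was called. *Rtn4*, the most abundant member, had 827 ± 149 CPM in the control, 895 ± 81.2 with apoE2, 896 ± 100 with apoE3 and 792 ± 107 with apoE4 (SD, n = 4). With the replicate number in the fit, its 95% interval was −0.04 to 0.29 on the log2 scale with apoE2 and with apoE3, and −0.22 to 0.11 with apoE4, so a difference of 2-fold lies outside all 3. *Omg* had 40.2 ± 10.9, 39.9 ± 8.35, 34.4 ± 10.4 and 36.4 ± 11.3 CPM in the same order. Its difference with apoE3 was −0.23 (0.1, adjusted p = 0.129 by edgeR), lower in 4 of 4 pairs and not called, except without apoE2 replicate 4 (−0.25, adjusted p = 0.0372).

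*Lingo3*, the other less studied relative of LINGO1, had 34.9 ± 13.1, 32.5 ± 13.9, 36.4 ± 15 and 39.3 ± 14.1 CPM in the same order (SD, n = 4). The isoforms gave −0.1, 0.06 and 0.17 on the log2 scale relative to control, and none was called.

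**Figure D2:**
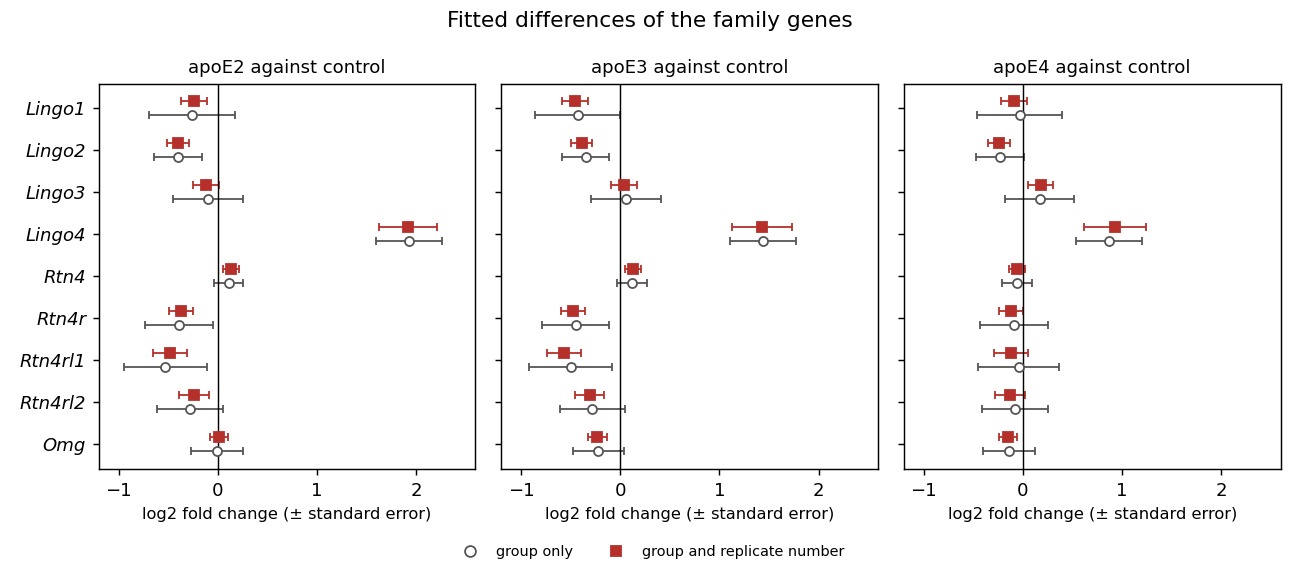
Log2 fold change (horizontal axis) of each family gene (vertical axis) with apoE2, apoE3 and apoE4 against control, with the standard error as the bar, from the edgeR fit with treatment alone (open circles) and with the replicate number added (filled squares). *Lingo4* lies to the right in all 3 panels, at 1.93, 1.44 and 0.87 with treatment alone, while *Lingo1*, *Lingo2*, *Rtn4r* and *Rtn4rl1* lie to the left with apoE3 and their bars shrink once the replicate number is in the fit.

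Against apoE3 rather than the control, apoE4 neurons had higher mean levels of the receptors. With the replicate number in the fit, *Lingo1* was at 0.37 (95% interval 0.08 to 0.66, adjusted p = 0.187), *Rtn4r* at 0.36 (0.09 to 0.62, adjusted p = 0.168) and *Rtn4rl1* at 0.45 (0.08 to 0.81, adjusted p = 0.208) by edgeR. Each was higher in 4 of 4 pairs and none was called, whereas without the filter on low counts all 3 were, at adjusted p of 0.00609, 0.0429 and 0.00149 by edgeR. *Rtn4* was at −0.18 (−0.35 to −0.02, adjusted p = 0.265) and lower in 4 of 4 pairs. This comparison shares its apoE3 libraries with the one above, so the 2 are not separate evidence.

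The replicate number, which the choice of genes did not use, set most of the spread of 8 of the 9 genes. The F test of the 3 replicate-number terms called all but *Lingo4*, with adjusted p from 1.69e-06 for *Lingo1* to 0.00126 for *Rtn4* by edgeR, where 63.8% of all tested genes were called. *Lingo4* had an adjusted p of 0.317. Of the variance in log2 CPM, 64.4% to 84.1% lay between replicate numbers and 5.58% to 21.8% between treatments for the 8 genes. For *Lingo4* 3.88% lay between replicate numbers and 78.2% between treatments, a division that its selection on apoE2 and control fixes in part. The medians over all tested genes were 56% and 14.5%.

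*Lingo3* was high in replicate 3, at 56.2 ± 3.7 CPM (SD, n = 4) against means of 28.2 to 29.5 CPM in the others. *Omg* and *Lingo2* were highest in replicate 2, at 51.1 ± 2.47 and 39 ± 4.67 CPM. *Lingo1*, *Lingo2*, *Rtn4r*, *Rtn4rl1*, *Rtn4rl2* and *Omg* had their lowest means in replicate 4, with 91.7, 22.6, 16.9, 33.5, 13.3 and 27.8 CPM. The summed neuron markers moved with the numbers too, with 3600 to 4230 CPM in replicate 1, 5510 to 5910 in replicate 2, 6040 to 6680 in replicate 3 and 2640 to 3960 in replicate 4. The astrocyte markers had 979 to 3200, 392 to 635, 1120 to 2020 and 2070 to 5020 CPM. Their part in the levels was not tested.

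**Figure D3:**
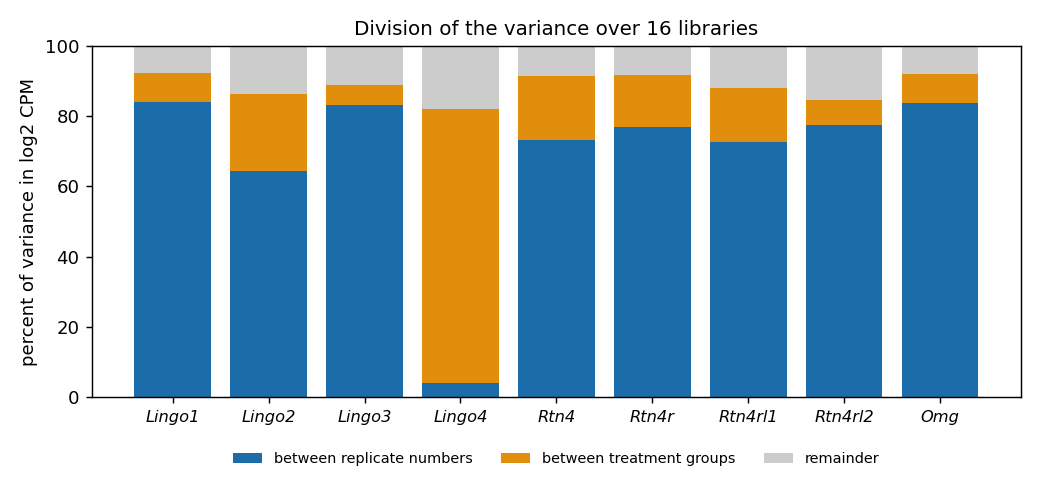
Percent of the variance in log2 CPM (vertical axis) of each family gene over 16 libraries that lay between replicate numbers, between treatments, or in neither. In *Lingo4* 78.2% lay between treatments, which its selection fixes in part, and in the other 8 genes 64.4% to 84.1% lay between replicate numbers.

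Among the signalling partners of the receptors, *Ngfr* (p75) differed most. Control replicates 1 to 4 had 6.55, 7.49, 7.61 and 28.9 CPM. ApoE2 neurons had 27.3, 28.4, 27.3 and 96.7 CPM, apoE3 neurons 124, 60.1, 82.9 and 122 CPM, and apoE4 neurons 17.9, 12.3, 6.09 and 27 CPM. All apoE3 libraries lay above all control and apoE4 libraries, and replicate 4 stood high in the control and with apoE2.

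*Ngfr* rose with apoE2 by 1.86 (standard error 0.28, adjusted p = 0.00452) and with apoE3 by 3.19 (0.29, adjusted p = 4.04e-05) on the log2 scale, by edgeR with the replicate number. It was at 0.44 (0.29, adjusted p = 0.487) with apoE4. It was lower with apoE4 than with apoE3, at −2.76 (0.29, adjusted p = 0.000211), and than with apoE2, at −1.43 (adjusted p = 0.00861). The rise with apoE2 and with apoE3 was called in 16 of 16 fits with 1 library left out. In the fit with treatment alone the values were 1.84 (adjusted p = 1), 2.95 (adjusted p = 0.29) and 0.33 (adjusted p = 1) by edgeR, none called. DESeq2 with treatment alone called *Ngfr* with apoE3 against control (2.94, adjusted p = 0.000366) and with apoE4 against apoE3 (−2.62, adjusted p = 0.00138) and not with apoE2 against control (1.83, adjusted p = 0.24). In the fit with the replicate number, 6 of 6 astrocyte and 3 of 5 oligodendrocyte precursor markers rose with apoE3, 0 of 6 and 0 of 5 with apoE2, and 3 of 6 and 1 of 5 with apoE4. Of all tested genes, 7.95%, 1.17% and 3.18% rose in those comparisons, in the same order. The part of these markers in the level of *Ngfr* was not tested.

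*Tnfrsf19* (TROY), which can stand in for p75, had 99.3 CPM in the control, 87 with apoE2, 103 with apoE3 and 99.5 with apoE4, and was not called in any comparison. *Pirb*, another receptor for Nogo and myelin ligands, did not pass the filter, with 13 to 18 reads summed over each group. *Mag*, a myelin ligand and also an oligodendrocyte marker, had 8.64, 1.45, 4.19 and 12.5 CPM in the control and 19.8, 3.36, 7.2 and 25.5 CPM with apoE3. It rose with apoE3 by 1.04 (standard error 0.26, adjusted p = 0.0205 by edgeR with the replicate number) and its call was lost in 3 of 16 fits with 1 library left out.

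**Figure D4:**
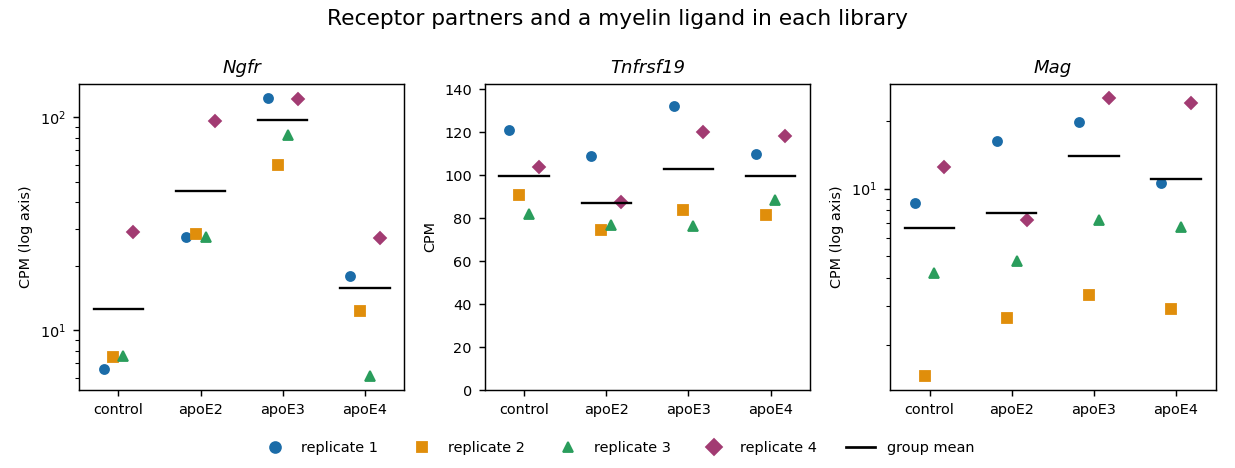
CPM of *Ngfr* and *Mag* (log axes) and *Tnfrsf19* (linear axis from 0) in the 16 libraries by treatment, with marker and colour giving the replicate number and the bar the mean of 4. *Ngfr* lies at 60.1 to 124 CPM with apoE3 against 6.55 to 28.9 CPM in the control, *Mag* is spread mainly by replicate number, and *Tnfrsf19* overlaps between all treatments.

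The rest of the pathway was read from lists, in which edgeR with treatment alone called no gene in any comparison. With the replicate number in the fit and apoE3 against control, 2 of 11 tested receptors rose and 2 fell, where 7.95% of all tested genes rose and 3.73% fell. They were *Ngfr* and the sphingosine-1-phosphate receptor *S1pr2*, which binds a Nogo-A domain (1.15, adjusted p = 0.00553), and, lower, *Adgrb1* (−0.48) and *Cntn1* (−0.31). The fall was lost in 5 of 16 fits with 1 library left out for *Adgrb1* and in 12 for *Cntn1*, and the number that fell ran from 0 to 2. *S1pr2* rose with apoE4 as well, by 1.16 (adjusted p = 0.00932 by edgeR), where 3.18% of all tested genes rose, and *Ngfr* with apoE2, where 1.17% rose. The median log2 fold change of the 11 was −0.04, where all tested genes had 0.02.

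Of 8 tested ligands and modulators, *Mag*, the proteoglycan *Vcan* (0.71) and *Crtac1* (0.57), which encodes an antagonist of the Nogo receptor, rose with apoE3, and *Lgi1*, whose product also binds it, fell by 0.58. These 3 of 8 and 1 of 8 stand beside the same 7.95% and 3.73% of all tested genes. *Vcan* rose with apoE2 also (0.77, adjusted p = 0.0313 by edgeR), a call lost in 7 of 16 fits with 1 library left out. With apoE3 the number of ligands that rose ran from 0 to 4 over those fits. Of 14 genes of the intracellular signal, *Rhoa* rose with apoE3 (0.33) while the kinase *Rock2* (−0.36) and the exchange factor *Kalrn* (−0.43) fell, 1 of 14 higher and 2 of 14 lower against those shares. *Rock2* was higher with apoE4 than with apoE3 (0.33, adjusted p = 0.0274 by edgeR), and the kinase *Wnk1* rose with apoE4 against control (0.56). Each was the only 1 of the 14 called in its comparison, where 182 and 541 of 17038 tested genes were called higher, in that order. With 1 library left out, the apoE3 calls were lost in 4 of 16 fits for *Rhoa*, 11 for *Kalrn* and 0 for *Rock2*, the apoE4 call of *Wnk1* in 9 and the difference of *Rock2* between apoE4 and apoE3 in 5. Of 3 other reticulons none was called.

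Other neuronal surface proteins with leucine-rich repeats had mostly negative differences with apoE3 and apoE4. Of 25 tested, 6 fell with apoE3 and none rose, where 3.73% of all tested genes fell. Those 6 were *Amigo1*, *Lrrn1*, *Lrrn3*, *Flrt3*, *Lrrtm3* and *Lrrc4c*, at −0.3 to −0.67. The median log2 fold change of the 25 was −0.23 with apoE3, −0.11 with apoE4 and −0.06 with apoE2, and 22, 21 and 16 of them had a value below 0. *Lrrn3* and *Flrt3* fell with apoE4 as well, by 0.34 and 0.42, and *Lrrtm3* with apoE2, by 0.64. These 2 of 25 and 1 of 25 stand beside 0.129% and 0.552% of all tested genes that fell with apoE4 and apoE2. With 1 library left out at a time the number that fell with apoE3 ran from 4 to 8, and the calls of *Lrrn3* and *Flrt3* with apoE4 were lost in 5 and 12 of 16 fits and that of *Lrrtm3* with apoE2 in 7. The astrocyte, precursor and neuron markers given above moved in the same comparison as these lists, and their part was not tested.

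Levels of the family genes were compared across the 16 libraries after the mean of each replicate number was taken off, as a description with no test. The Nogo receptors ran closely together, with Pearson's r of 0.86 for *Rtn4r* and *Rtn4rl1*, 0.8 for *Rtn4r* and *Rtn4rl2* and 0.9 for *Rtn4rl1* and *Rtn4rl2*. *Lingo1* ran with them, at 0.95 with *Rtn4rl1*, 0.87 with *Rtn4rl2* and 0.81 with *Rtn4r*. *Lingo2* lay between 0.57 and 0.78 with these 4. *Lingo4* and *Rtn4* both had the opposite sign to them, *Lingo4* from −0.61 with *Lingo1* to −0.76 with *Rtn4rl1* and *Rtn4* from −0.47 with *Rtn4rl2* to −0.74 with *Rtn4r*, and the r of *Lingo4* and *Rtn4* was 0.6. *Lingo3* lay between −0.36 and −0.16 with these receptors and *Lingo1*. With the replicate means left in, the signs of *Rtn4* and *Lingo3* turned. *Rtn4* then ran from 0.26 with *Lingo2* to 0.54 with *Lingo1*, and *Lingo3* from 0.28 with *Rtn4r* to 0.56 with *Lingo1*. *Lingo4* stayed negative, from −0.17 with *Lingo1* to −0.45 with *Lingo2*. These points share libraries, treatments and composition.

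Among 14162 genes of at least 1 CPM on average, those most like *Lingo1* were *Papd7* (r = 0.954), *Rtn4rl1* (0.947) and *Mgat3* (0.944). Those most like *Rtn4r* were the immediate early gene *Egr3* (0.948), *Aplp1* (0.93) and *Gpc3* (0.928). Those most like *Lingo4* were *Prokr2* (0.944), *Rbms1* (0.927) and *Ablim1* (0.922), each over 16 libraries. *Prokr2*, which encodes a prokineticin receptor, had 3.86 ± 1.24 CPM in the control, 9.06 ± 3.36 with apoE2, 7.9 ± 1.48 with apoE3 and 5.18 ± 1.78 with apoE4 (SD, n = 4), the order of *Lingo4*. Treatment differences were left in when these genes were picked for likeness. The shared order therefore follows largely from the pick, and nothing is read from it. *Egr3* had 13.9 ± 5.7, 9.66 ± 5.88, 7.57 ± 4.42 and 15.1 ± 9.76 CPM, with overlapping groups.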

How the data were processed

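Total RNA of 16 cultures was depleted of ribosomal RNA and sequenced. The deposited files hold 1 raw count per gene symbol and library, which the authors obtained from STAR alignments (mm10) with HTSeq, without normalization. Summary counts (no feature, ambiguous and others) were left out of library sizes.

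Counts were analysed with edgeR 4.0.16 in R 4.3.3: filterByExpr (minimum count 10, total 15, proportion 0.7), TMM factors (0.889 to 1.149), 1 coefficient per treatment over 16 libraries, the quasi-likelihood test and Benjamini-Hochberg adjustment over all 17038 tested genes, called at 0.05. CPM used effective library sizes, and exon lengths came from GENCODE M21 on GRCm38. The code was tested on simulated data. DESeq2 1.42.0, other filters and scalings, left-out libraries and the replicate number as a block were alternatives. Same-numbered libraries shared deviations from their group means in every pair (r from 0.335 to 0.805 over 24 pairs). Libraries of different numbers in different groups had r from −0.706 to 0.531 over 72 pairs. The pairs of replicate number 1 (0.335 to 0.509) lie within that range, so this check does not set number 1 apart. The numbers were taken to pair the libraries, from the data, and the blocked values are given beside the results. The common dispersion was 0.132 without the block and 0.0178 with it. p-values measure the spread between these cultures, and depth sets counting error only.

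The members, the pathway and marker lists and the tests were chosen with earlier results of these data known. Named were all 9 members, *Ngfr*, *Tnfrsf19*, *Pirb* and *Mag*, list genes called in any comparison, genes whose exons overlap exons of a member, and the 3 genes most like *Lingo1*, *Lingo4* and *Rtn4r*. *Nf1* and *Eml6* are named for position only. Neighbouring genes are not reported here. Promoter sequences are RefSeq's.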

Additional observations from a re-analysis of the deposited data

Results flagged for a closer look

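In 4 of 48 groups of 4 libraries examined, 1 library stood apart from the other 3 by Dixon's ratio, which chance does in about 1 of 20 groups. *Lingo3* had 58.8 CPM in apoE3 replicate 3, where the other 3 libraries had 27 to 30 CPM, and replicate 3 was the highest in every treatment. *Omg* had 52.3 CPM in apoE2 replicate 2, where the others had 34.7 to 37.5 CPM. *Ngfr* had 96.7 CPM in apoE2 replicate 4 against 27.3 to 28.4 CPM, and 28.9 CPM in control replicate 4 against 6.55 to 7.61 CPM.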

How the results depend on the processing

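Without the replicate number no member was called in any comparison, and other scalings, filters, the fit of only the 2 groups compared and each library left out changed none of those counts of called members. With the replicate number as a block, 1 member was called with apoE2 and 5 with apoE3 against control, *Lingo4* among them both times, and the number at the 2-fold criterion for apoE4 against apoE2 went from 1 to 0. It changed no other count of called members and none of the other counts at that criterion. DESeq2 called 1 member (*Lingo4*) with apoE2 and 1 (*Lingo4*) with apoE3 against control, among 29 and 60 of 17038 genes. DESeq2 with the block called 2 (with *Lingo2*) and 5 among 709 and 2687 genes, and for apoE4 against apoE2 2 (*Lingo4* and *Rtn4*) among 1242 genes and 0 at the 2-fold criterion. Calls of *Lingo4* in comparisons with the control or apoE2 restate its selection. In the blocked fit, the number called ran over the left-out libraries from 1 to 2 with apoE2, 1 to 6 with apoE3 and 0 to 1 with apoE4 against control, and 0 to 2 for apoE4 against apoE2. The number at the 2-fold criterion ran from 0 to 1 for apoE4 against control and for apoE4 against apoE2, in both fits, and *Lingo4* was the member that moved in each. With treatment alone the libraries were apoE4 replicate 3 and control replicate 3 for the first and apoE2 replicate 3 and apoE4 replicate 3 for the second. Without a filter on low counts the blocked fit called 4 members with apoE2 (*Lingo2*, *Lingo4*, *Rtn4r* and *Rtn4rl1*) and 1 with apoE4 against control (*Lingo4*), 3 for apoE4 against apoE3 (*Lingo1*, *Rtn4r* and *Rtn4rl1*) and 2 for apoE4 against apoE2 (*Lingo4* and *Rtn4rl1*), among 1091, 1438, 1195 and 1499 of 34387 genes. The cause of these differences was not tested. The 8 members called by replicate number were called under every alternative tried there, and *Lingo4* with them only without apoE4 replicate 3. The alternatives for *Ngfr* and *Mag* were chosen after their values were seen.

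Signs turned only for differences that were not called with all 16 libraries. *Rtn4rl1* for apoE3 against apoE2 went from 0.03 to −0.09 on the log2 scale with the block and −0.1 with DESeq2 and the block, *Omg* for apoE2 against control from −0.01 to 0.01 with the block, and *Lingo2* for apoE3 against apoE2 from 0.01 to −0.01 in the blocked fit without a filter. The others turned with a library left out, over these ranges of log2 fold change with treatment alone. For apoE4 against control they were *Lingo1* (−0.36 to 0.23), *Lingo3* (−0.1 to 0.46), *Rtn4* (−0.17 to 0.03), *Rtn4r* (−0.27 to 0.12), *Rtn4rl1* (−0.35 to 0.23), *Rtn4rl2* (−0.29 to 0.14), *Omg* (−0.36 to 0.02) and *Ngfr* (−0.06 to 1.13). For apoE4 against apoE2 they were *Lingo1* (−0.1 to 0.5), *Rtn4rl2* (−0.01 to 0.43), *Omg* (−0.35 to 0.04) and *Mag* (−0.19 to 1.18). For apoE3 against apoE2 they were *Lingo1* (−0.35 to 0.09), *Lingo2* (−0.21 to 0.24), *Lingo3* (−0.17 to 0.5), *Rtn4r* (−0.3 to 0.15) and *Rtn4rl1* (−0.2 to 0.3). For apoE4 against apoE3 they were *Lingo2* (−0.08 to 0.38), *Lingo3* (−0.16 to 0.44), *Rtn4rl2* (−0.01 to 0.42), *Omg* (−0.14 to 0.27) and *Mag* (−1.04 to 0.13). For apoE2 against control they were *Lingo3* (−0.44 to 0.19), *Omg* (−0.18 to 0.15) and *Mag* (−0.45 to 0.7). For apoE3 against control they were *Lingo3* (−0.27 to 0.35). With the block, the ranges were as follows. For apoE4 against control they were *Lingo1* (−0.17 to 0.04) and *Rtn4rl1* (−0.25 to 0.02). For apoE3 against apoE2 they were *Lingo2* (−0.12 to 0.12), *Rtn4rl1* (−0.23 to 0.13) and *Rtn4rl2* (−0.15 to 0.11). For apoE2 against control they were *Lingo3* (−0.25 to 0.01), *Omg* (−0.11 to 0.08) and *Mag* (−0.02 to 0.66). For apoE3 against control they were *Lingo3* (−0.06 to 0.11). Low depth limits *Lingo4*, with 14 to 129 reads per library.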
